A study of Mus musculus with 6 samples.

Results

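Oxidative phosphorylation genes, the nuclear genes whose proteins make up the mitochondrial respiratory chain and ATP synthase, were compared between G1E-ER-GATA-1 cells with and without knockdown of Mi2β. The members were taken by gene name: probes of the array, control spots left out, whose gene name begins with Nduf, Uqcr or Atp5, or is Sdha, Sdhb, Sdhc, Sdhd, Cyc1, Cycs, or Cox followed by a digit from 4 to 8. This gave 95 gene names with 140 probes. The brightest detected probe stands for each gene, and 92 of the 95 could be tested, among 22054 genes tested in all. Of the 95 names, 85 are subunits or cytochrome c, 9 are assembly or accessory factors that share the prefix (Ndufaf1 to Ndufaf7, Atp5s and Atp5sl), and 1 is a pseudogene (Atp5c1-ps). The last 2 kinds were counted apart from the subunits. Ndufa4 and its paralogue Ndufa4l2 were counted under complex I by name, though the Ndufa4 protein belongs with complex IV.

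G1E-ER-GATA-1 is a mouse erythroid progenitor line, grown with erythropoietin and Kit ligand, without a GATA-1 gene product of its own, in which a fusion of GATA-1 with the hormone-binding part of the oestrogen receptor has been introduced. All 6 samples came from this line and all received β-estradiol, which activates the fused GATA-1, for 24 h. The control group (3 samples) was transfected with a non-targeting siRNA and the knockdown group (3 samples) with an siRNA specific for Mi2β, each at 0 h and 24 h, and the cells were harvested at 48 h. Mi2β is the nucleosome-remodelling ATPase of the NuRD complex and is encoded by Chd4. No sample without estradiol and no second cell line was part of the comparison. Whether the 3 samples of a group were separate cultures is not stated in the labels. The p-values therefore cover the spread between these 3 samples alone, and that spread may be technical.

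Complex I (NADH dehydrogenase), complex II (succinate dehydrogenase), complex III (the cytochrome bc1 complex) and complex IV (cytochrome c oxidase) pass electrons from nutrients to oxygen and, except for complex II, pump protons across the inner mitochondrial membrane. Complex V, the ATP synthase, uses the returning protons to make ATP. Most subunits are encoded in the nucleus and a few in mitochondrial DNA, and several complex IV subunits exist as a widely expressed form and as a form typical of muscle, lung or testis. Erythroid precursors use their mitochondria for haem synthesis as well as for ATP, and red cells discard them at the end of maturation.

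Values are log2 of the array signal minus the array's 75th percentile, so 0 is the level of that percentile. Differences are taken within a probe, between arrays. A gene "rose" or "fell" where the adjusted p was below 0.05 by limma, with Benjamini-Hochberg adjustment over all 22054 genes. The siRNA target passed this test: Chd4 stood at 5.93, 6.00 and 5.75 in control replicates 1 to 3 and at 4.62, 4.60 and 4.54 in knockdown replicates 1 to 3, and it fell by 1.31 (SE 0.10, limma adjusted p = 0.00161). Between 48.9% and 74.0% of spots were well above background on the knockdown arrays and between 53.4% and 56.8% on the control arrays. The erythroid identity of the cells was borne out by their markers: 9 of 10 erythroid markers were detected, all 9 on 6 arrays, with a summed level of 3165 to 3661 in control and 3364 to 3620 in knockdown samples. Globin genes make up most of that sum. Within the list Alas2, which catalyses the first step of haem synthesis in red cell precursors, rose by 1.06 (SE 0.12, limma adjusted p = 0.00468), and Slc4a1, the red cell anion exchanger, fell by 1.04 (SE 0.15, limma adjusted p = 0.0121). Among all genes tested, 4.97% rose and 4.56% fell. Of the other marker lists, 4 of 7 tested megakaryocyte genes fell (summed level 60.1 to 65.3 in control, 19.6 to 26.6 in knockdown). In addition 2 of 5 mast cell genes rose (0.973 to 1.20, then 2.67 to 3.13) and 2 of 6 myeloid genes rose (19.9 to 25.8, then 24.8 to 26.2). In these 3 lists Pf4, Itgb3, Gp9, Gp1ba, Itga2b, Hdc, Cpa3, Itgam and Elane were among the genes well above background on all 6 arrays. Ppbp, Mcpt8, Fcer1a, Ms4a2 and Lyz2 were so on none, and Tpsab1 and Cma1 on 3. Tpsab1, which rose, stood at -6.49, -5.53 and -6.32 in control and at -3.18, -3.40 and -3.74 in knockdown samples. Its control level may be background, so its rise, 1 of the 2 in the mast cell list, may start from an undetected level. The megakaryocyte genes that fell were Pf4, Itgb3, Gp9 and Gp1ba. Itga2b went the other way, by 1.51 (SE 0.35, limma adjusted p = 0.0509), without overlap. Of 6 proliferation genes 1 fell (398 to 497, then 327 to 366), and 0 of 3 tested lymphoid genes passed (0 at an unadjusted p under 0.05 by limma). The part of these shifts in the results below was not tested, and in bulk RNA fewer cells of a type and less RNA per cell cannot be told apart.

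Most oxidative phosphorylation genes differed little between the groups. Of the 92 tested, 3 rose (3.26%) and 3 fell (3.26%), against 4.97% and 4.56% of all genes tested (9.54% in either direction). The genes that rose were Cox6b2 and Cox6a2, tissue isoforms of complex IV subunits, and Ndufc2, an accessory subunit of complex I. Those that fell were Ndufaf7, a methyltransferase needed for complex I assembly, Ndufa6, an accessory subunit of complex I, and Atp5s, a factor associated with ATP synthase. Among the 82 tested subunits 3 rose and 1 fell. Without knockdown replicate 1 the counts of the 92 were 1 and 1 (Cox6b2 and Ndufaf7), and 1 fell also without control replicate 1 or 2 or knockdown replicate 2.

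The median log2 change of the 92 genes was -0.01, with 44 above 0 and 48 below, and the median of all genes was -0.03. In 76 of the 92 (82.6%) the change lay within 0.3 of 0 in either direction, as it did in 62.9% of all genes. The members were much brighter, with a median linear control signal of 34434.5 against 306.87 for all genes tested. The part of brightness in the shares near 0 and in the shares called was not tested. For 73 of the 92 the 95% confidence interval lay wholly inside a 1.5-fold change in both directions. These were 30 of 38 in complex I, 4 of 4 in complex II, 9 of 9 in complex III, 12 of 15 in complex IV and 14 of 15 in complex V. The share was lower among the assembly factors (4 of 9), and neither Cycs (0 of 1) nor the pseudogene (0 of 1) was among them. The 3 knockdown samples lay wholly above the 3 control samples in 17 genes (18.5%) and wholly below them in 13 (14.1%), against 12.7% and 18.3% of all genes. At an unadjusted p under 0.05, 11 of the 92 were higher and 5 lower, against 10.5% and 13.4% of all genes. With each array scaled by its median, the median of all genes moved to -0.27 and that of the members to -0.25, so small changes are best read against the median of all genes.

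**Figure D1:**
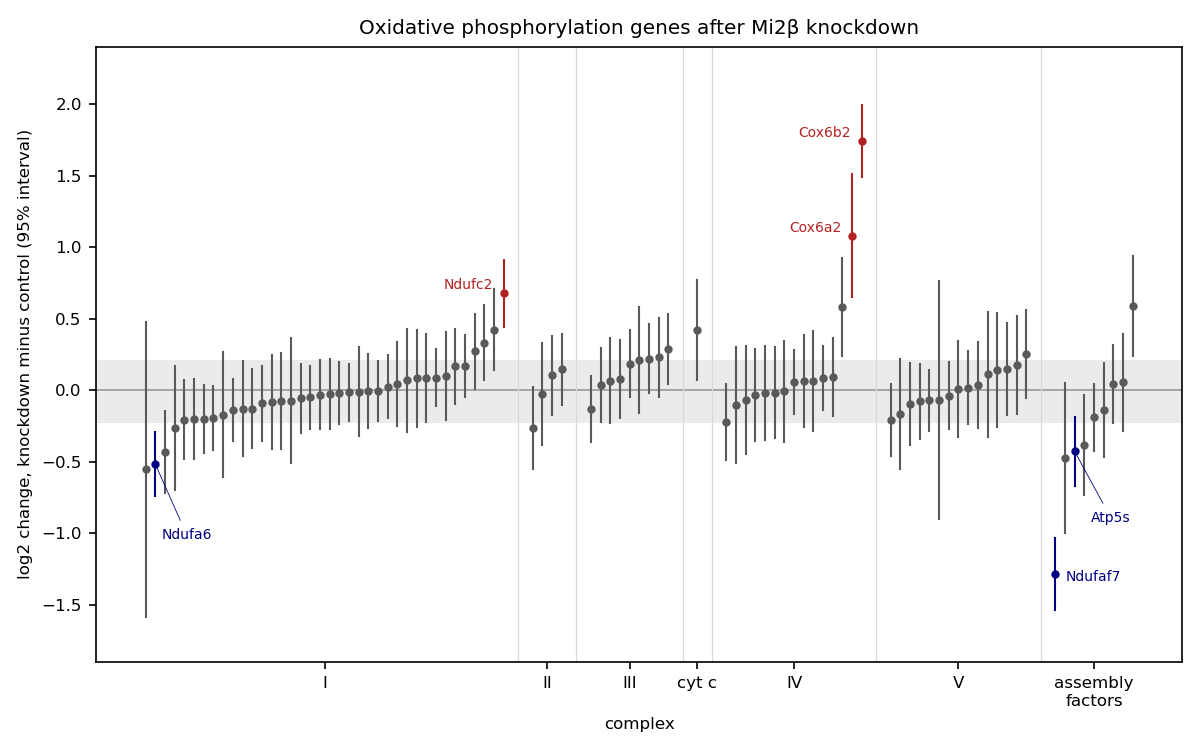
Log2 change (knockdown minus control, vertical axis) of the 92 tested oxidative phosphorylation genes except the pseudogene, ordered by change within each complex (horizontal axis); points are limma estimates, vertical lines 95% intervals, and the grey band spans the quartiles of all genes (-0.23 to 0.21). The 3 genes that rose are red, the 3 that fell are blue, and most of the others lie inside the band.

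Complex I, with Ndufa4 and Ndufa4l2 counted in it by name, was the largest group, and 1 of its 38 genes rose and 1 fell. Its median change was -0.03, with 13 genes above 0 and 25 below. Ndufc2 encodes a small accessory subunit of the membrane arm. It stood at 6.30, 6.47 and 6.47 in the control samples and at 7.09, 7.05 and 7.14 in the knockdown samples. Every knockdown sample was above every control sample, and the knockdown samples lay close to each other. The rise was 0.68 (SE 0.10, limma adjusted p = 0.0108), or 1.60-fold. It was 0.68 within slide row 1 (2 arrays of each group) and 0.67 within row 2 (1 of each). The adjusted p ranged from 0.000641 to 0.693 over 19 alternatives. The call was lost in 5 of them, among these with array median scaling (0.44, adjusted p = 0.693), with no detection filter (adjusted p = 0.0515), within slide row 1 alone (adjusted p = 0.0857) and without knockdown replicate 1 (adjusted p = 0.0657). The probe lies on chromosome 7 at 104556135 to 104556194 (mm9).

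The promoter window of Ndufc2 is shown because this was the complex I gene that rose. It spans 250 bases before to 50 after the transcription start, per RefSeq on GRCm38.p6 (chr7:97399753-97400052, plus strand). CG dinucleotides are in capitals, here 8, against a median of 20 in the windows of all matched members.
Ndufc2: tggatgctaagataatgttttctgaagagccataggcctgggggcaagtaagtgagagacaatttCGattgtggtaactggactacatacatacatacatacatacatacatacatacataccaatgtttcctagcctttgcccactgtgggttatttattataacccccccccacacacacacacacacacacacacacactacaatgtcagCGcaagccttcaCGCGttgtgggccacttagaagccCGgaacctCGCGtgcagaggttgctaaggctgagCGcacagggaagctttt

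Ndufa6 encodes an accessory subunit of the LYR family that holds the mitochondrial acyl carrier protein on complex I. It stood at 6.89, 6.95 and 6.85 in control and at 6.34, 6.34 and 6.47 in knockdown samples. All 3 knockdown samples were below all 3 control samples. It fell by 0.52 (SE 0.09, limma adjusted p = 0.0220), with -0.59 within slide row 1 and -0.38 within row 2. Over the 19 alternatives its adjusted p ran from 0.00256 to 0.4115. The call was lost in 8 of them, among these with array median scaling (adjusted p = 0.4115), with no detection filter (adjusted p = 0.0947), within slide row 1 alone (adjusted p = 0.0913), and without control replicate 1 or 2 or knockdown replicate 1 or 2 (adjusted p from 0.0708 to 0.117). Its acyl carrier partner Ndufab1 differed by 0.08 (SE 0.14, adjusted p = 0.772). The Ndufa6 probe lies on chromosome 15 at 82181444 to 82181503 (mm9).

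Core subunits of complex I described here did not pass the test in either direction. The core subunits Ndufv1 and Ndufv2, in the part of the complex that takes electrons from NADH, differed by -0.01 (SE 0.13) and -0.13 (SE 0.14). Their accessory partner Ndufv3 differed by 0.04 (SE 0.12). Ndufs1, the large iron-sulphur subunit, read 6.47, 6.58 and 6.51 in control and 6.51, 6.53 and 6.50 in knockdown samples, and the groups overlapped. The difference was -0.01, with a 95% interval from -0.21 to 0.20. The iron-sulphur subunits Ndufs7 and Ndufs8 differed by -0.06 (SE 0.10) and -0.21 (SE 0.11), and the core subunit Ndufs3 by -0.20 (SE 0.10). Ndufs3 was lower in all 3 knockdown samples (6.81, 6.84 and 6.96) than in the control samples (7.00, 7.05 and 7.16), with an adjusted p = 0.285 by limma.

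Several accessory subunits had non-overlapping groups without passing. Ndufb11, an X-linked accessory subunit, stood at 6.96, 7.06 and 6.75 in control and at 6.40, 6.54 and 6.52 in knockdown samples. The difference was -0.43 (SE 0.12, limma adjusted p = 0.0765). Ndufb4, an accessory subunit of the membrane arm, stood at 6.68, 7.00 and 6.75 and then at 7.22, 7.18 and 7.29, a difference of 0.42 (SE 0.12, limma adjusted p = 0.0820). These 2 genes were thus separated between the groups in opposite directions by similar amounts.

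Ndufa4 carries a complex I name but its protein belongs with complex IV. It read 5.04, 5.27 and 5.06 in control and 5.38, 5.53 and 5.46 in knockdown samples. The groups did not overlap, and the difference of 0.33 (SE 0.11) had a limma adjusted p = 0.123. That gene passed under 3 of the 19 alternatives. Its paralogue Ndufa4l2, a gene known to be induced by hypoxia, read 6.42, 5.79 and 6.75, then 5.04, 5.76 and 6.48. The spread within both groups was wide, the groups overlapped, and the difference of -0.55 had an SE of 0.42.

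Complex II showed no gene past the threshold (0 at an unadjusted p under 0.05 by limma). Sdha, the flavoprotein that oxidises succinate, stood at 5.68, 6.00 and 5.51 in control and at 5.77, 5.71 and 5.64 in knockdown samples, and the groups overlapped. The difference was -0.03 (95% interval -0.38 to 0.33). Sdhb, the iron-sulphur subunit, read 6.43, 6.66 and 6.35 and then 6.23, 6.14 and 6.28. All knockdown samples were below the control samples, and the difference of -0.27 (SE 0.12) had a limma adjusted p = 0.240. A second Sdhb probe differed by -0.10 (SE 0.11). The membrane anchors Sdhc and Sdhd differed by 0.10 (SE 0.11) and 0.15 (SE 0.10).

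In complex III 8 of 9 genes were above 0, whereas 54.5% of all genes tested were below 0. The median was 0.18, and none passed the test by limma (1 at an unadjusted p under 0.05). With array median scaling the median was -0.053 beside -0.27 for all genes. That scaling shifts all genes alike, so the gap to the median of all genes could not change and is no check. Cyc1, cytochrome c1, gave the highest value. It stood at 6.77, 6.97 and 6.81 in control and at 7.17, 7.07 and 7.19 in knockdown samples, with no overlap between the groups. The difference was 0.29 (SE 0.10, limma adjusted p = 0.145), and it passed with quantile normalization (adjusted p = 0.0430) and with array weights (adjusted p = 0.0304). The core protein Uqcrc2 (0.22, SE 0.10), the ubiquinone-binding subunit Uqcrq (0.23, SE 0.11) and the small subunit Uqcr11 (0.18, SE 0.10) also had knockdown samples wholly above control samples. That made 4 of the 9 genes, beside 12.7% of all genes, and the difference was not tested. Uqcrfs1, the Rieske iron-sulphur protein, differed by 0.21 (SE 0.15) and its groups overlapped. By its brightest probe Uqcrb was the exception at -0.13 (SE 0.10), with its knockdown samples below the control samples. Its other detected probes gave 0.22 (SE 0.20) and -0.19 (SE 0.15), so its direction depended on the probe. The per-sample medians of the 9 genes, relative to each gene's control mean, were 0.02, 0.11 and -0.11 in control and 0.13, 0.13 and 0.20 in knockdown samples. The knockdown medians were all above the control medians, narrowly so beside control replicate 2. Among the fits that left out 1 replicate, the median of the 9 genes was lowest, at 0.094, without control replicate 3. Within slide row 1 alone it was 0.074.

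Cytochrome c, encoded by Cycs, carries electrons from complex III to complex IV and also triggers apoptosis when released. It stood at 6.20, 6.56 and 6.13 in control and at 6.82, 6.65 and 6.69 in knockdown samples. The groups did not overlap, with control replicate 2 just below the lowest knockdown sample. The difference was 0.42 (SE 0.14, limma adjusted p = 0.139), and a second, dimmer probe gave 0.58 (SE 0.18). It passed under 4 of the 19 alternatives: normexp background correction, quantile normalization, an intensity trend and array weights (adjusted p from 0.0229 to 0.0443).

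Complex IV held the largest rises, in isoforms known from testis and muscle, while the widely expressed isoforms differed little. Of 18 names 15 were tested, 2 rose and none fell (limma also gave 0 falls at an unadjusted p under 0.05), and the median was 0.06. Cox6b2 is the testis form of the subunit that faces the intermembrane space. It stood at -0.38, -0.61 and -0.39 in control and at 1.25, 1.28 and 1.32 in knockdown samples, well above background on all 6 arrays. The 3 knockdown samples lay within 0.1 of each other and far above the control samples. Cox6b2 rose by 1.74 (SE 0.10, limma adjusted p = 0.000689), or 3.34-fold. It was 1.76 within slide row 1 and 1.71 within row 2, and it passed in 19 of 19 alternatives (adjusted p from 6.08e-06 to 0.0248). On mm9 the probe covers positions 4703488 to 4703547 of chromosome 7.

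Cox6b1, the widely expressed form of the same subunit, read 4.85, 4.95 and 4.65 in control and 4.88, 4.88 and 4.96 in knockdown samples. The groups overlapped, and the difference was 0.09 (95% interval -0.18 to 0.36). That interval does not reach the one for Cox6b2, 1.49 to 1.99. The promoter windows of both are shown because this pair differed most between a tissue form and its common form. Both lie on the minus strand of GRCm38.p6 in RefSeq (Cox6b2 at chr7:4753045-4753344, Cox6b1 at chr7:30626065-30626364), with 10 and 17 CG dinucleotides in capitals.
Cox6b2: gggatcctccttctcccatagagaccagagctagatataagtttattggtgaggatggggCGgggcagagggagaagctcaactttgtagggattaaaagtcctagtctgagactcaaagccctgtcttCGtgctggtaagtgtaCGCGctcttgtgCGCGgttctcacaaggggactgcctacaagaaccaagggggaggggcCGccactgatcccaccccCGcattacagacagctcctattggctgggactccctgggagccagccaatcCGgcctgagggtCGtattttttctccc
Cox6b1: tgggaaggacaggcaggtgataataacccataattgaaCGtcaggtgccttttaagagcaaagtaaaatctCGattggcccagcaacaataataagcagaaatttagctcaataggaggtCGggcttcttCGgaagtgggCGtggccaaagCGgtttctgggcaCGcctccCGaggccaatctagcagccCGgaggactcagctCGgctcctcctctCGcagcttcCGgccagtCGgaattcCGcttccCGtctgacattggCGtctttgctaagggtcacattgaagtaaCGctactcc

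Cox6a2, the heart and skeletal muscle form of subunit 6A, stood at -0.55, -0.71 and -0.78 in control and at 0.69, 0.43 and 0.08 in knockdown samples. The groups did not overlap, though the knockdown samples spread more widely than those of Cox6b2. It rose by 1.08 (SE 0.18, limma adjusted p = 0.0172), or 2.11-fold, with 1.19 within slide row 1 and 0.86 within row 2. The adjusted p ranged from 0.00122 to 0.31 over 19 alternatives. The call was lost with array median scaling (0.84, adjusted p = 0.31), with no detection filter (adjusted p = 0.0567), and without any 1 of control replicates 1 to 3 or knockdown replicates 1 and 2 (adjusted p from 0.0542 to 0.0700). The probe lies on chromosome 7 at 135349160 to 135349219 (mm9). Its widely expressed counterpart Cox6a1 read 9.71, 9.83 and 9.75, then 9.79, 9.83 and 9.92, a difference of 0.08 (95% interval -0.14 to 0.31).

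Cox7a1, the heart and muscle form of subunit 7A, stood at 6.18, 6.22 and 6.56 in control and at 6.78, 6.91 and 7.02 in knockdown samples. The groups did not overlap, with control replicate 3 nearest to the knockdown samples. The difference of 0.58 (SE 0.14) missed the threshold with a limma adjusted p = 0.0566, and it passed under 6 of the 19 alternatives, among them leaving out control replicate 3 (adjusted p from 0.00881 to 0.736 over all of them). The common form Cox7a2 differed by -0.01 (SE 0.15), and the related Cox7a2l, which links complexes III and IV, by -0.22 (SE 0.11).

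Not every tissue form was higher. Cox4i2, the lung form of subunit 4, read -0.71, -0.60 and -0.81 in control and -1.01, -0.51 and -0.81 in knockdown samples, and the groups overlapped (-0.07, SE 0.15). Its common form Cox4i1 differed by 0.06 (SE 0.13). Other tissue forms, 3 in number, could not be tested: Cox7b2 and Cox8b were well above background on no array, and Cox8c on 1, knockdown replicate 2. Cox8a, the common form of subunit 8, differed by 0.06 (SE 0.09). The other subunits tested stayed near 0 as well: Cox5a at -0.04, Cox5b at -0.10, Cox6c at 0.06, Cox7b at -0.02 and Cox7c at -0.02.

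**Figure D2:**
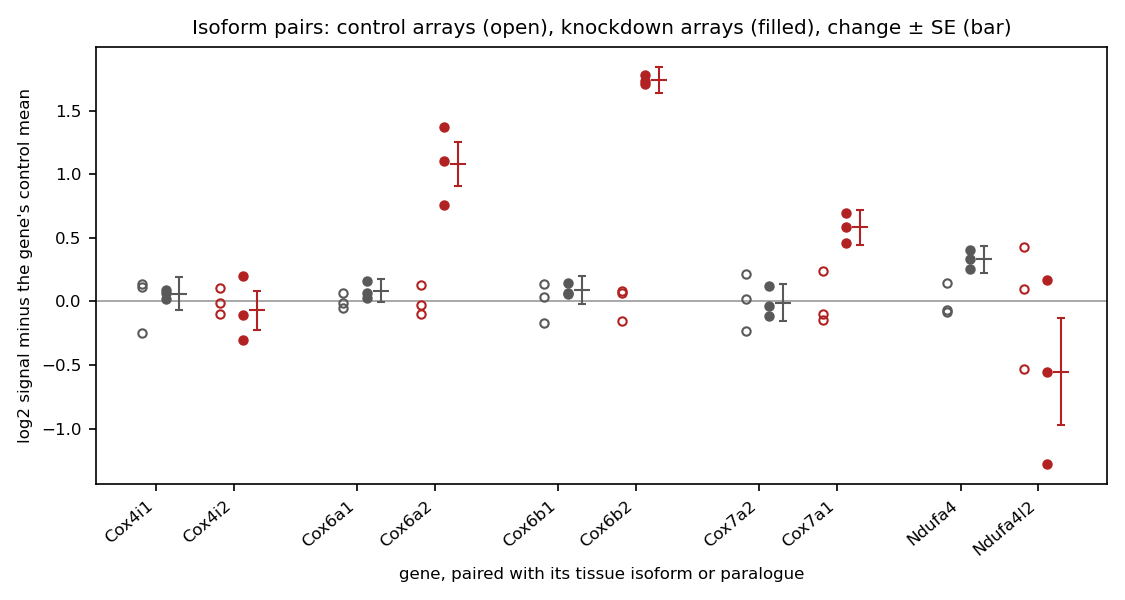
Log2 signal minus each gene's control mean (vertical axis) for 5 pairs of a common form (grey) and a tissue form or paralogue (red); open circles are the 3 control samples, filled circles the 3 knockdown samples, and bars the change ± SE. Cox6b2 and Cox6a2 lie clear of their control samples, Cox7a1 lies above them without passing the test, and Cox4i2 and Ndufa4l2 overlap them.

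Complex V, the ATP synthase, had 0 genes past the threshold (0 at an unadjusted p under 0.05 by limma) among 15 tested. The median was 0.01 and the changes ran from -0.21 (Atp5d, SE 0.10, a subunit of the central stalk) to 0.25 (Atp5k, SE 0.12, a membrane subunit). The catalytic β subunit Atp5b stood at 9.02, 8.99 and 8.53 in control and at 8.71, 8.60 and 8.74 in knockdown samples. The groups overlapped, with control replicate 3 the lowest of all 6, and the difference was -0.17 (95% interval -0.55 to 0.22). The 3 genes that encode the same proton-carrying c subunit differed by 0.17 (Atp5g1, SE 0.14), -0.07 (Atp5g2, SE 0.09) and 0.14 (Atp5g3, SE 0.16). The 6 probes of Atp5l, a membrane subunit, gave changes between 0.10 and 0.20. Atp5o, a subunit of the peripheral stalk, read 5.71, 5.87 and 5.40, then 5.95, 4.84 and 5.99. Knockdown replicate 2 was the lowest of the 6 and the other two knockdown samples the highest, which left an interval from -0.90 to 0.76.

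Atp5s, also called Dmac2l, encodes factor B, a coupling factor of ATP synthase and no part of its core. It stood at 0.94, 1.01 and 0.85 in control and at 0.49, 0.42 and 0.60 in knockdown samples. The groups did not overlap. It fell by 0.43 (SE 0.10) with a limma adjusted p = 0.0497, with -0.52 within slide row 1 and -0.25 within row 2. The call held under only 6 of 19 alternatives (adjusted p from 0.0103 to 0.523, the change -0.67 at the highest, with array median scaling) and was lost without any 1 of the 6 replicates (adjusted p from 0.0737 to 0.189) and with the slide row as a block (adjusted p = 0.0863). On mm9 the probe covers positions 70842700 to 70842759 of chromosome 12. The pseudogene Atp5c1-ps differed by 0.37 (SE 0.14, adjusted p = 0.191 by limma) and its parent Atp5c1 by 0.02 (SE 0.10), and probes of so similar a pair may share transcripts.

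Of the 9 assembly and accessory factors with member names 2 fell and none rose (1 was higher at an unadjusted p under 0.05 by limma), and the median was -0.19. Each replicate left out in turn reduced the 2 falls to 1, Ndufaf7. Ndufaf7, a methyltransferase that acts early in complex I assembly, fell most. It stood at 3.54, 3.75 and 3.52 in control and at 2.33, 2.26 and 2.35 in knockdown samples. The knockdown samples lay within 0.1 of each other and more than 1 below every control sample. Ndufaf7 fell by 1.29 (SE 0.10, limma adjusted p = 0.00162), which is 2.44-fold lower. It was -1.35 within slide row 1 and -1.17 within row 2, and it passed in 19 of 19 alternatives (adjusted p up to 0.0331). The probe lies on chromosome 17 at 79346307 to 79346366 (mm9).

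The promoter window of Ndufaf7 is shown because it was the largest fall among the members. It comes from RefSeq on GRCm38.p6 (chr17:78936885-78937184, plus strand), with 24 CG dinucleotides in capitals.
Ndufaf7: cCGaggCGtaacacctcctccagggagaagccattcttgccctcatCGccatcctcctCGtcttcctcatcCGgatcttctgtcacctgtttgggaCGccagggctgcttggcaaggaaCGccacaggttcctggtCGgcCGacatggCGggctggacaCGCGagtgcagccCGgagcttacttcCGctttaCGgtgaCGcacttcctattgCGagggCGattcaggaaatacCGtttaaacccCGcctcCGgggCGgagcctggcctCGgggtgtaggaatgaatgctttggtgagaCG

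The other complex I assembly factors went both ways without passing. Ndufaf4 read 3.15, 3.41 and 3.02 in control and 3.90, 3.82 and 3.61 in knockdown samples, with no overlap. The difference was 0.59 (SE 0.14, limma adjusted p = 0.0595). Its partner in assembly, Ndufaf3, differed by -0.19 (SE 0.10), with knockdown samples below control samples. Ndufaf5, which hydroxylates the core subunit Ndufs7, differed by -0.48 (SE 0.21), and its groups overlapped. Atp5sl, now named Dmac2 and involved in assembly of the membrane arm, read 2.98, 3.04 and 2.77, then 2.60, 2.32 and 2.71, a difference of -0.38 (SE 0.14, adjusted p = 0.174 by limma).

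**Figure D3:**
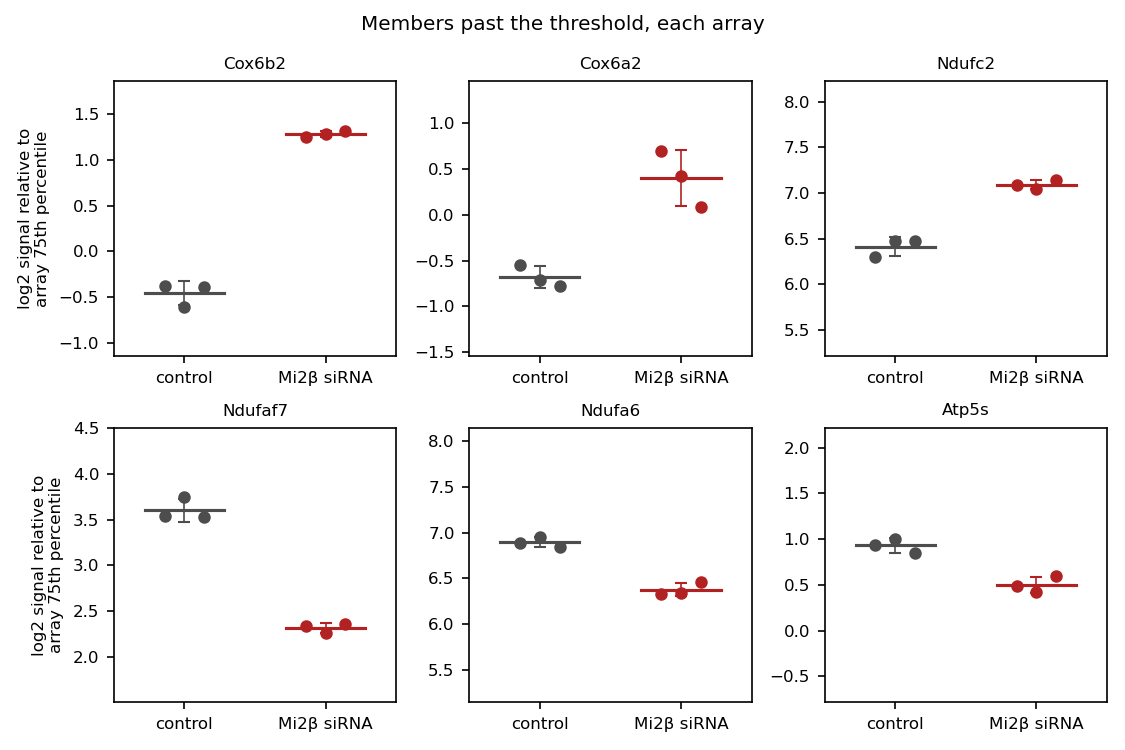
Log2 signal relative to the array's 75th percentile (vertical axis) in each control (grey) and knockdown (red) sample for the 6 genes past the threshold; horizontal bars are group means and error bars SDs (n = 3), and all panels span the same range of log2 units. In all 6 panels the groups do not overlap, and the gap is widest for Cox6b2 and Ndufaf7.

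Genes with several probes gave a check within the arrays. Of 31 members with more than 1 detected probe, 28 had all their probes within 0.3 of each other, and 0 had probes that passed in opposite directions. Fitted one by one over 31853 probes, of which 4.31% rose and 3.88% fell, 7 of the 134 detected member probes passed. They were the probes of the genes past the threshold except Atp5s, and dimmer probes of 2 genes whose brightest probe missed it. A dimmer Ndufaf4 probe rose by 0.84 (SE 0.15, limma adjusted p = 0.0248), against 0.59 on the brighter one. A dim Ndufb11 probe fell by 0.62 (SE 0.10, limma adjusted p = 0.0179), against -0.43 and -0.46 on the brighter ones. Probes of the same gene spread widest for Uqcrb (-0.19 to 0.22), Cox7c (-0.38 to -0.02) and Uqcrq (0.23 to 0.54). Each of the 6 genes past the threshold had only 1 probe, so their changes had no such check.

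**Figure D4:**
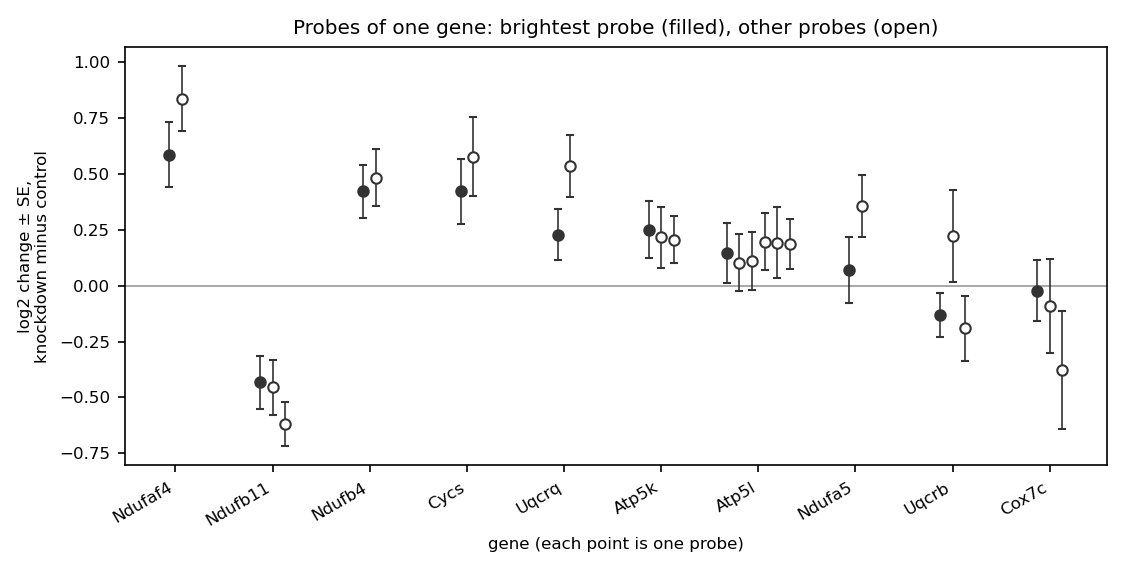
Log2 change ± SE (vertical axis) of every detected probe of 10 genes (horizontal axis), chosen after their values were seen for their spread or their nearness to the threshold; filled circles are the brightest probe, open circles the others. The probes of Ndufb11 all lie below 0 and those of Ndufaf4, Ndufb4 and Cycs all above 0, whereas those of Uqcrb lie on both sides.

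The respiratory chain subunits encoded in mitochondrial DNA were read by 13 probes, 1 for each of the 13 genes. None of the 13 passed in either direction (0 at an unadjusted p under 0.05 by limma), and their median was -0.02. The changes ran from -0.15 (mt-Co2, SE 0.09) to 0.38 (mt-Nd1, SE 0.17). Their summed level was 3845 to 4442 in control and 3845 to 4212 in knockdown samples, so the ranges overlapped.

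Of 36 tested assembly factors with other names, 2 fell and 0 rose by limma, beside 4.56% and 4.97% of all genes. At an unadjusted p under 0.05 by limma, 5 were higher and 5 lower, beside 10.5% and 13.4% of all genes. Cox20, a chaperone of the mitochondrially encoded subunit 2 of complex IV, read 4.30, 4.60 and 4.23 in control and 3.56, 3.58 and 3.67 in knockdown samples. It fell by 0.77 (SE 0.13, limma adjusted p = 0.0177). Sdhaf4, which helps to assemble Sdha into complex II, fell by 0.57 (SE 0.11, limma adjusted p = 0.0279). The Cox20 call was lost in 7 of 19 alternatives (adjusted p up to 0.145), among them leaving out control replicate 1 or knockdown replicate 1 or 2. The Sdhaf4 call was lost in 9 (adjusted p up to 0.3595), among them leaving out any control replicate or knockdown replicate 1 or 2.

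Regulators of mitochondrial gene expression gave the largest changes among the 6 related lists. Of 19 tested 3 rose and 0 fell by limma, beside 4.97% and 4.56% of all genes, and the median was -0.16. At an unadjusted p under 0.05 by limma, 4 were higher and 6 lower, beside 10.5% and 13.4% of all genes. Esrra, the oestrogen-related receptor α that binds promoters of respiratory chain genes, read 2.59, 2.73 and 2.28 in control and 3.95, 3.68 and 3.76 in knockdown samples. All knockdown samples lay well above the control samples. It rose by 1.26 (SE 0.15, limma adjusted p = 0.00601) and kept its call in 17 of 19 alternatives, the exceptions being array median scaling (adjusted p = 0.132) and slide row 1 alone (adjusted p = 0.05005).

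Ppargc1b, a coactivator that works with oestrogen-related receptors, was dim. It stood at -2.92, -2.62 and -3.40 in control and at -1.39, -1.67 and -2.08 in knockdown samples, without overlap. It rose by 1.27 (SE 0.26, limma adjusted p = 0.0366), but by 0.63 with normexp background correction (adjusted p = 0.0135), and 8 of 19 alternatives ended the call (adjusted p up to 0.129), among them leaving out control replicate 1, 2 or 3 or knockdown replicate 1 or 2. Tefm, the mitochondrial transcription elongation factor, rose by 0.53 (SE 0.11, limma adjusted p = 0.0329), a call lost in 10 of 19 alternatives (0.30, adjusted p = 0.762 with array median scaling), including without any 1 of the 6 replicates. The factors Nrf1 (-0.20, SE 0.13), Gabpa (-0.42, SE 0.12), Yy1 (-0.42, SE 0.11) and Tfam (0.02, SE 0.13) did not pass by limma, with adjusted p = 0.409, 0.0995, 0.0710 and 0.944.

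In the citric acid cycle, which supplies electrons to the chain, 1 of 17 genes rose and none fell, with a median of 0.08. With limma, 5 of these were higher and 0 lower at an unadjusted p under 0.05, beside 10.5% and 13.4% of all genes. For this list and the next, 4.97% of all genes rose and 4.56% fell. The citric acid cycle gene that rose was Idh2, the NADP-dependent isocitrate dehydrogenase of mitochondria (0.62, SE 0.13, limma adjusted p = 0.0356). Its call was lost in 10 of 19 alternatives (0.39, adjusted p = 0.7145 with array median scaling), among them leaving out control replicate 1 or 3 or any knockdown replicate. Of 13 coenzyme Q synthesis genes 1 fell, the kinase-like Coq8b (-0.78, SE 0.15, limma adjusted p = 0.0267), a call also lost in 10 of 19 (adjusted p up to 0.137), among them leaving out control replicate 2 or 3 or any knockdown replicate. The ATP synthase inhibitor Atpif1 differed by -0.26 (SE 0.09, adjusted p = 0.126 by limma), and the uncoupling proteins Ucp2 and Ucp3 by -0.44 (SE 0.17) and -0.36 (SE 0.16), none past the threshold.

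**Figure D5:**
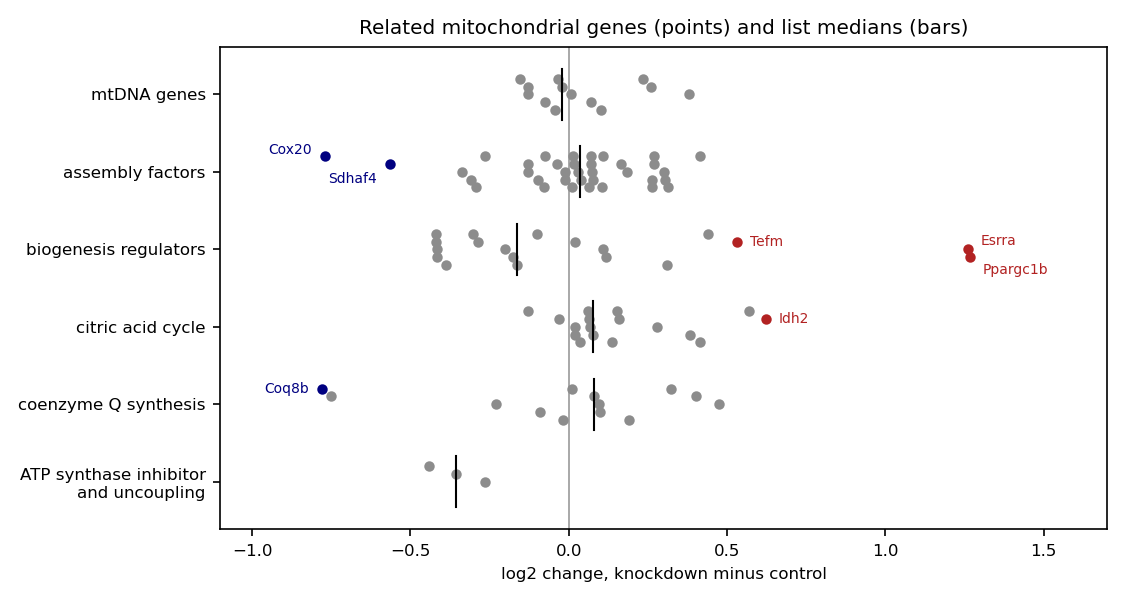
Log2 change, knockdown minus control (horizontal axis), of genes in 6 lists related to the respiratory chain (vertical axis); points are genes, black bars list medians, red genes rose and blue genes fell. Esrra and Ppargc1b stand apart on the right, and the mitochondrial DNA genes gather around 0.

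The promoter windows of the members were richer in CG dinucleotides than most. RefSeq windows of 300 bases on GRCm38.p6 were matched for 77 of the 95 names, with a median of 20 CG (quartiles 15 to 25) against 8 (3 to 22) over 27025 genes. Letters known from binding sites were searched on both strands, and none of these motifs contains another. The NRF1 consensus was in 9.09% of the matched members and in 1.41% of all genes. CCGGAAG, bound by ETS factors such as Gabpa, was in 22.1% and 9.93%, and AAGATGGCG, the core of the YY1 site, in 10.4% and 1.64%. The letters AAGGTCA, bound by oestrogen-related receptors, was in 10.4% and 5.38%, and the GATA letters AGATAA in 7.79% and 12.7%. Among members past the threshold, the window of Ndufa6 held the NRF1 consensus and that of Ndufc2 the GATA letters, and those of Cox6b2, Ndufaf7 and Dmac2l held none of the 5 motifs. The part of CG content in these shares was not tested, and a match in letters is not a bound site.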

How the data were processed

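RNA from each of 6 samples was read on an Agilent array of its own in 1 colour. Per the file headers, the deposited linear intensities were extracted with Agilent's software (version 10.7.3.1), which subtracted the background; they were not normalized between arrays. The submitters' processing notes name limma too, without its settings. A value table that the authors deposited, equal to these intensities, was used as an alternative. Their number, 3 arrays a group, limits the precision.

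Processed signals were put on the log2 scale and each array's 75th percentile was subtracted, control spots and outlier-flagged spots were left out, and spots of a probe were averaged. A probe was kept if 3 or more of the 6 arrays had it well above background, with the brightest probe per gene (22054 genes). Knockdown and control were compared by a two-sided moderated test without covariates (limma 3.58.1, R 4.3.3, threshold 0.05). In simulated data with 22054 genes, 67, 67 and 66 genes were changed 1.5-, 2- and 4-fold. The fit recovered 11.9%, 43.3% and 84.8% of them. Those are far fewer genes than the 2103 called here, so the adjustment was stricter there and these shares may be too low. Summed levels of a list are sums over its tested genes on the linear scale, relative to the 75th percentile.

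The members, gene lists and tests were chosen with earlier results of these data known. The genes described are those past the threshold, the extremes of each complex, isoform families, Sdha to Sdhd, Cycs, Cyc1 and Chd4. Other members are named after their values were seen. A few genes are not reported here, and counts include them. Probe positions refer to mm9, the build named in the file headers. The exon under a probe is not given, because an mm9 annotation was not used here. Symbols were updated through RefSeq accessions (27509 of 29150 matched). In all, 19 alternatives were fitted. Same-numbered replicates did not clearly deviate together (r = 0.21, -0.32 and 0.13). With 3 samples a group these values cannot show whether the numbers pair the samples. Replicate 3 of both groups lay in slide row 2, the others in row 1.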

Additional observations from a re-analysis of the deposited data

How the results depend on the processing

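Cox6b2, Ndufaf7 and Chd4 passed in 19 of 19 alternatives, and no called result changed sign in any of them. The numbers of oxidative phosphorylation genes that rose and fell, 3 and 3 in the report, moved as follows. They were 1 and 1 with array median scaling or no detection filter. The number that rose was 8 with normexp, quantile normalization, an intensity trend or array weights and 5 with the filter of all 6 arrays or the slide row as a block. The number that fell was 5 with array weights and 1 within slide row 1 alone. Without one replicate at a time 1 to 3 rose and 1 to 2 fell. The causes were not tested.

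Over all genes, 1097 rose and 1006 fell. The counts were 473 and 311 with array median scaling, 2169 and 2533 with array weights, 658 and 332 with no detection filter, and 493 and 225 within slide row 1. In addition 1657 fell with normexp and 1776 with an intensity trend. Without one replicate at a time 554 to 892 rose and 255 to 677 fell.

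With the replicate number as a block, 2 members rose and 1 fell, 500 and 183 of all genes, 0 of complex I and 1 of the assembly factors passed, and in the other lists 2 rose and 0 fell. The numbers share no stated source.

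In complex I, 2 genes passed in the report, 5 with normexp or an intensity trend, 4 with quantile normalization or array weights, 0 with median scaling, no detection filter or row 1 alone, and 0 to 2 without a replicate. In complex III 1 passed with quantile normalization or array weights. In complex IV 1 passed with median scaling or no detection filter, and 1 to 2 without a replicate. Of the assembly factors 4 passed with array weights and 1 with median scaling, no detection filter, row 1 alone, the percentile taken over averaged probes (added after seeing the data), or without any replicate.

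Median scaling moved the median of the members to -0.25, of complex I to -0.27, II to -0.20, III to -0.053, IV to -0.18, V to -0.23 and the assembly factors to -0.43, beside -0.27 for all genes. The complex III median was 0.074 within row 1 and 0.094 to 0.22 without a replicate. In the 6 other lists together 4 rose and 3 fell. The numbers were 8 and 7 with normexp, 8 and 8 with an intensity trend, 16 and 8 with array weights, 0 and 0 with median scaling or row 1 alone, and 1 and 0 with no detection filter. Moreover 8 rose with quantile normalization and 5 fell with the filter of all 6 arrays. Without a replicate 1 to 2 rose and 0 to 3 fell. With 3 arrays a group, changes near 1.5-fold may go uncalled. In the simulation, where far fewer genes were changed than were called here, 11.9% of them were recovered.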

Other observations

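Genes beside the 6 members past the threshold were read from the RefSeq order of protein-coding genes on GRCm38.p6, 3 on each side. Of 36 such neighbours 24 were tested, of which 1 rose and 2 fell, beside 4.97% and 4.56% of all genes. A few of the neighbours are described here. Near Ndufa6 on chromosome 15, Pheta2, an endosomal trafficking protein, fell by 0.88 (SE 0.11, limma adjusted p = 0.00721), from 3.97 to 3.09. Smdt1, a subunit of the mitochondrial calcium uniporter that lies between Pheta2 and Ndufa6, differed by 0.14 (SE 0.09, limma adjusted p = 0.430).

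Near Atp5s (Dmac2l) on chromosome 12, Atl1, which shapes the endoplasmic reticulum, rose by 1.30 (SE 0.15, limma adjusted p = 0.00515), and Cdkl1 differed by -0.15 (SE 0.15). Beside Ndufaf7 on chromosome 17, Cebpz differed by 0.14 (SE 0.12) and Prkd3 by -0.55 (SE 0.38). Alg8 beside Ndufc2 differed by 0.19 (SE 0.14). Kmt5c, a histone methyltransferase gene beside Cox6b2, differed by -0.49 (SE 0.12, limma adjusted p = 0.0555), the opposite sign to Cox6b2. These genes were looked up after the members past the threshold were known.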
